A study of Homo sapiens with 6 samples.

Results

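Solute carriers form a large superfamily of membrane transporters, and 81 of the 4546 genes in the deposited comparison of mitoxantrone-treated with DMSO-treated A549 cells carry its name. They were chosen as every gene whose symbol in the table is SLC followed by a number, with the antisense transcript SLC16A1-AS1 left out. Solute carriers that the table lists under other symbols are not among the 81. These include MFSD7 and C3orf55, now named SLC49A3 and SLC66A1L and both higher with mitoxantrone (log2 fold changes 2.32 and 2.85), and the SLCO genes. The 81 genes fall into 33 families. By GENCODE 29 biotype 79 are protein-coding and 2, SLC6A21P and SLC22A20, are pseudogenes. Families 1, 3, 6, 7, 36, 38 and 43, which hold most of the plasma membrane amino acid transporters, contributed 23 genes (none from family 36), and the other families 58.

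A549 is a widely used cell line from a human lung adenocarcinoma. Cells were plated overnight and then kept for 48 hours with 50 nM mitoxantrone, a DNA intercalator that blocks topoisomerase II, or with DMSO at a 1/1000 dilution, the solvent control. Each treatment gave 3 RNA-seq libraries, so the comparison is of 3 mitoxantrone with 3 DMSO libraries of 1 cell line. The series title places it in work on senescence and immune recognition of lung cancer. The labels do not say whether the replicates were separate cultures, so all p-values measure the spread between these libraries, which may be technical.

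Solute carriers move small molecules across membranes by facilitated diffusion, by exchange of one solute for another, or by coupling uphill transport to a sodium, proton or chloride gradient. They supply cells with amino acids, sugars, vitamins, nucleosides and metals, and one large family serves the inner mitochondrial membrane. Several amino acid carriers work as a linked system in tumour cells. SLC1A5 brings in glutamine, and the heteromer of SLC7A5 with its heavy subunit SLC3A2 exports glutamine in exchange for leucine and other large essential amino acids. Transcription of many of these carriers and of amino acid synthesis enzymes is known to be raised by ATF4, the transcription factor of the amino acid response.

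The table lists only genes that had passed a threshold on these same libraries. In the authors' deposited table no absolute log2 fold change is under 1.00 and no adjusted p over 0.0497. Every solute carrier gene described here had therefore been selected for a difference, and a second test on the same libraries is a description of size and spread rather than independent evidence. Of 385 protein-coding SLC genes in the RefSeq annotation 79 were listed under an SLC symbol, which leaves out SLC49A3. A gene that is not listed is not thereby shown to be unchanged. The library totals were 16681380 to 19352443 reads with mitoxantrone and 20380674 to 21781220 with DMSO, and the listed genes held 16.9% to 17.3% of each. The 3 listed of 9 lung epithelial markers (KRT8, KRT19 and CDH1) were higher with mitoxantrone. Of 11 markers of leukocytes, endothelium and fibroblasts, 2 were listed, CDH5 at 8.78 and VWF at 7.29 mean normalized counts with mitoxantrone, against 0.286 and 0.862 with DMSO. Their part in the results was not tested.

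After mitoxantrone, 60 of the 81 listed solute carrier genes were higher and 21 lower. Those with the most reads, SLC7A5, SLC3A2 and SLC1A5, were among the lower. Normalized counts are raw reads divided by each library's size factor. Summed over the 81 genes they came to 92722 ± 2932 with mitoxantrone and 198771 ± 2679 with DMSO (SD, n = 3 libraries each). As a share of all reads in a library, the 81 genes took 0.458% to 0.476% with mitoxantrone and 1.06% to 1.07% with DMSO, so that the groups did not overlap. SLC7A5 and SLC3A2 alone made up 62.6% to 64.8% of these reads with mitoxantrone and 66.8% to 67.5% with DMSO. In bulk libraries of this kind, fewer cells that express a gene and less RNA per cell cannot be told apart.

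The test was edgeR's quasi-likelihood test over all 4546 genes with Benjamini-Hochberg adjustment, and a gene is called at an adjusted p under 0.05. It called 100% of the listed genes, 58.9% higher and 41.1% lower with mitoxantrone. The solute carriers split 74.1% higher and 25.9% lower. In 79 of the 81 the 2 groups of libraries did not overlap (98.3% of all listed genes), the exceptions being SLC2A14 and SLC6A21P. The median log2 fold change was 1.62 for the solute carriers and 1.20 for all listed genes. With TMM factors in place of the size factors the median of all genes moved by -0.26 on the log2 scale, and no solute carrier gene changed direction under it. In a stricter edgeR test (glmTreat) of whether the change exceeds 2-fold, 49 solute carriers passed as higher and 16 as lower, and of all listed genes 48.5% as higher and 32.1% as lower.

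The split differed with the read count. Of the 43 genes that averaged 50 or more normalized counts over the 6 libraries, 24 were higher and 19 lower. Among all listed genes at that level 45.0% were higher and 55.0% lower. Of the 38 with a lower mean, 36 were higher and only SLC6A15 and SLC8A1 lower. Most listed genes at that level were higher too, 1497 of 1924 against 427 lower. The amino acid families held 14 of the 43 abundant genes, of which 4 were higher and 10 lower. The other families held 29, of which 20 were higher and 9 lower. On the FPKM scale, which divides by gene length, the median level of the 21 lower genes was 2.16 with mitoxantrone and 8.63 with DMSO, while the 60 higher genes had medians of 0.578 with mitoxantrone and 0.155 with DMSO.

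**Figure D1:**
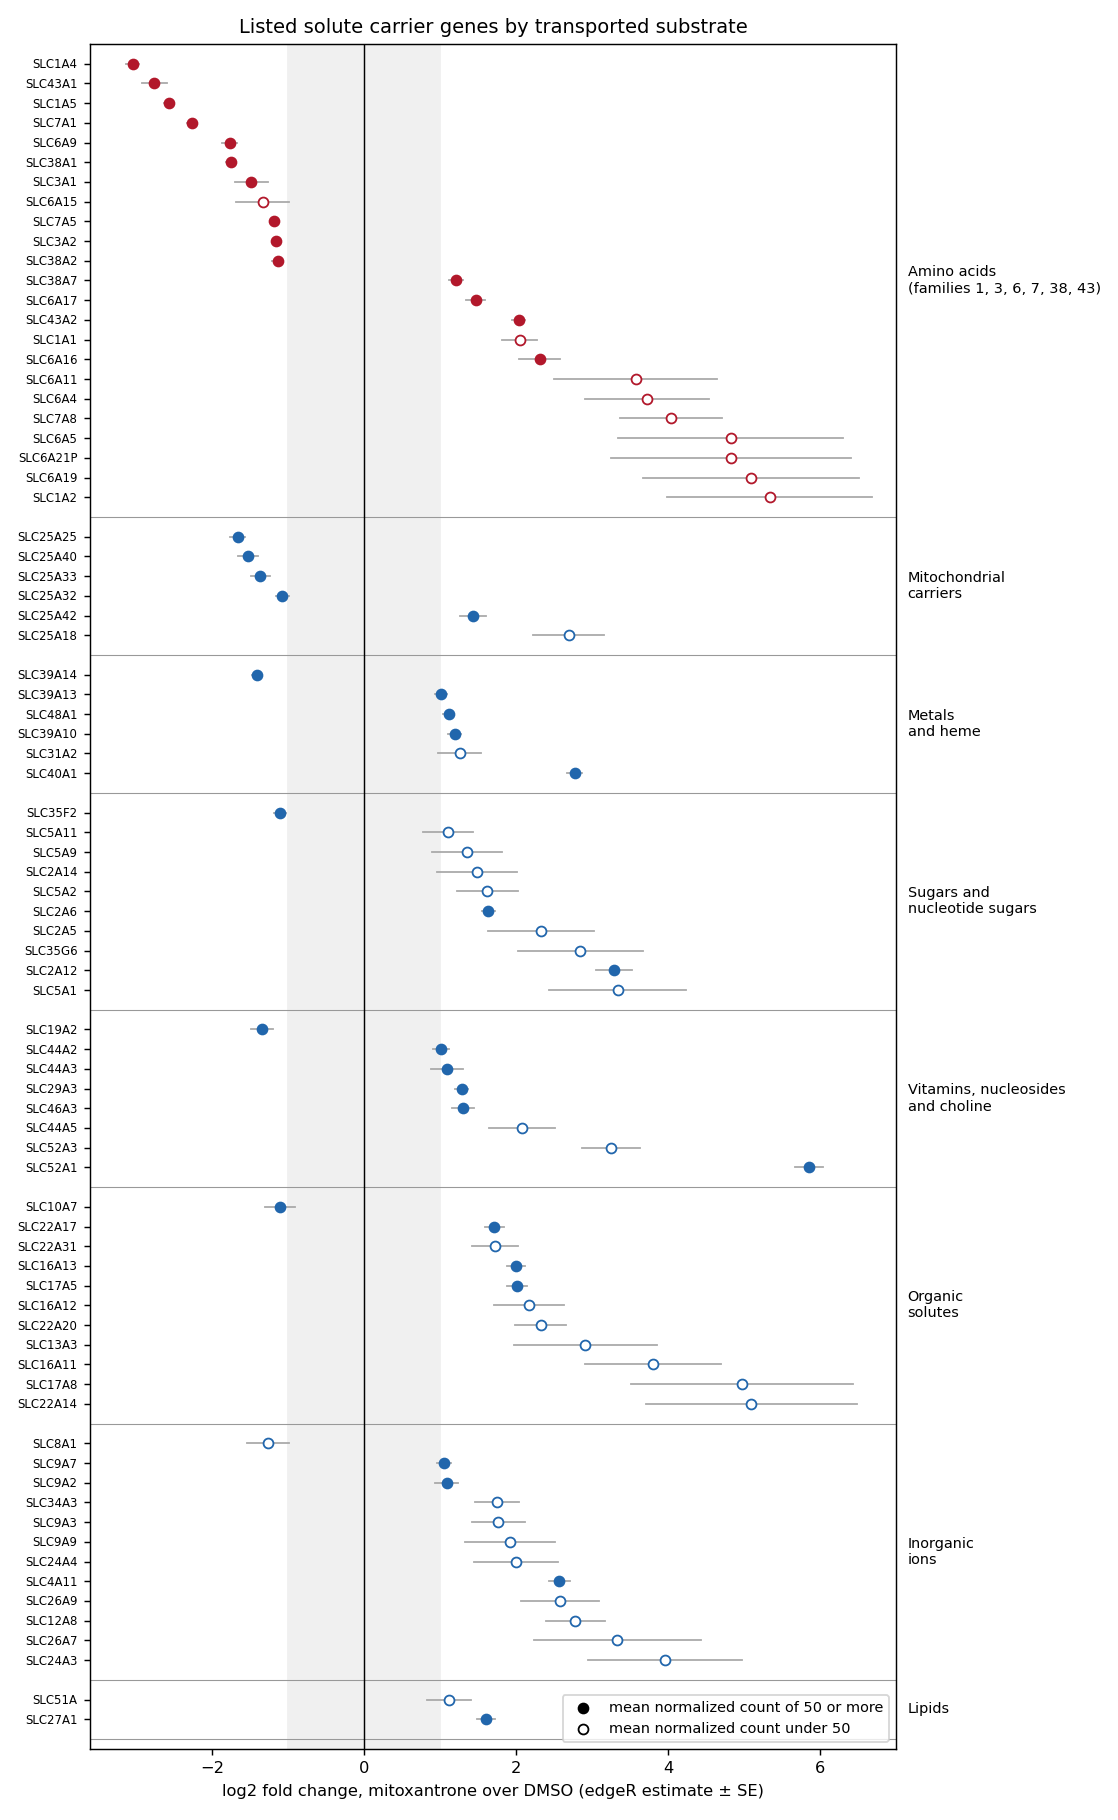
Log2 fold change (mitoxantrone over DMSO, x axis) of 78 of the 81 solute carrier genes, in rows grouped by the main substrate of their family. Bars are 1 standard error of the edgeR estimate, derived from the F statistic of its test. Filled points have a mean normalized count of at least 50, and the shaded band from -1 to 1 holds no gene because the table was filtered at 1.00. Most points are on the right, while the amino acid families (red) and the mitochondrial carriers hold most of the filled points on the left. The widest bars belong to genes with 0 to 3 reads over the DMSO libraries, whose fitted values are not bounds.

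**Figure D2:**
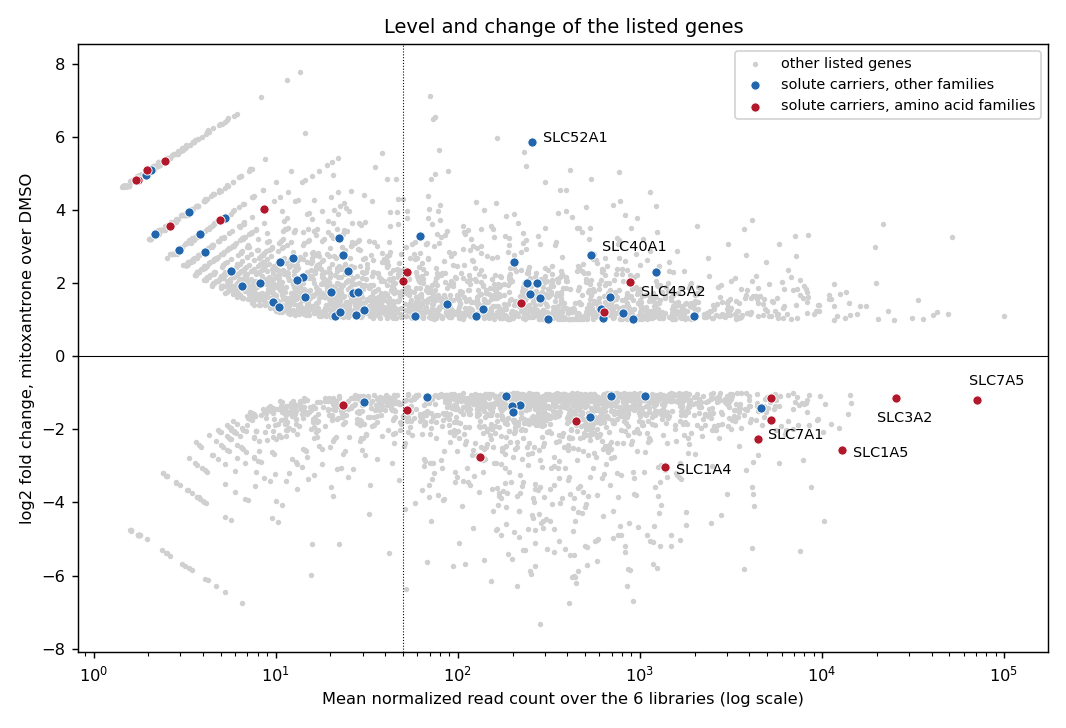
Log2 fold change against the mean normalized read count over the 6 libraries (log scale) for all 4546 listed genes in grey, with the 58 solute carriers of other families in blue and the 23 of the amino acid families in red. The dotted line marks a mean count of 50. The red points with the highest counts all lie below 0, and SLC52A1 is the highest solute carrier point to the right of the line.

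The amino acid families split into 12 higher and 11 lower genes. The 11 lower genes included the listed solute carriers with the most reads. They summed to 68210 to 73246 normalized counts per mitoxantrone library, against 179368 to 184388 per DMSO library. The 12 higher genes summed to only 2769 to 2969 with mitoxantrone and 851 to 924 with DMSO. The 23 genes had a median of 1.21 on the log2 fold change scale, and that of the 14 abundant ones -1.33. The 9 less abundant genes comprised 8 higher and 1 lower, in a table where 1497 of 1924 genes at that level were higher.

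The transcripts of both subunits of the SLC7A5 and SLC3A2 heteromer fell. These are RNA counts, which do not measure protein or transport. SLC7A5 encodes the light, transporting subunit LAT1, a carrier of leucine and other large neutral amino acids. It had 45674, 41366 and 42468 normalized counts in the mitoxantrone libraries, against 98481, 100043 and 96488 in the DMSO libraries. It was the highest solute carrier of the list in both groups, at 457 ± 18.1 FPKM with mitoxantrone and 1106 ± 12.1 FPKM with DMSO (SD, n = 3). The difference was 2.28-fold (log2 fold change -1.19 ± 0.05 SE; edgeR, adjusted p = 1.3e-23). SLC3A2, the heavy subunit also known as CD98, had 16550.1, 15283 and 15384 normalized counts with mitoxantrone, against 33957, 36228 and 34787 with DMSO, a 2.22-fold fall (log2 fold change -1.15 ± 0.06). The groups were well apart for both genes. The ratio of their FPKM values, SLC7A5 over SLC3A2, was 2.99 to 3.05 in the mitoxantrone libraries and 3.05 to 3.20 in the DMSO libraries. The pseudogenes SLC7A5P1 and SLC7A5P2, close copies of SLC7A5 that could draw or lend reads, were not listed. Of the other light subunits SLC7A8 was listed and higher, and SLC7A6, SLC7A7 and SLC7A11 were not listed.

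The glutamine and neutral amino acid carriers of family 1 fell further. SLC1A5, the glutamine transporter ASCT2, had 3777, 3617 and 3740.0 normalized counts with mitoxantrone, against 21630.0, 22479 and 21842 with DMSO, and was 5.92-fold lower (log2 fold change -2.57 ± 0.06; edgeR, adjusted p = 4.2e-33). SLC1A4, its relative ASCT1, which carries serine, alanine and cysteine, had 272, 318 and 305 counts with mitoxantrone and 2304, 2409 and 2654 with DMSO. At a log2 fold change of -3.04 ± 0.09 it was the most strongly lowered of all 81 genes. On the FPKM scale SLC1A5 and SLC3A2 stood at about the same level with DMSO, 352 ± 4.39 and 356 ± 9.11, while with mitoxantrone SLC1A5 was at 56.0 ± 0.952 and SLC3A2 at 151 ± 4.82. By GENCODE 29, 23.4% of the exon bases of SLC1A5 are shared with an antisense gene on the opposite strand that is not listed. Strandedness is not stated, so reads there cannot be told apart.

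The cationic carrier SLC7A1, the sodium-coupled SLC38A1, SLC38A2 and SLC6A9 and the system L relative SLC43A1 were also lower. SLC7A1, the main arginine and lysine carrier CAT1, had 1622, 1445 and 1525 counts with mitoxantrone, against 7519, 7263 and 7249 with DMSO (4.80-fold lower; log2 fold change -2.26 ± 0.07). SLC38A1 and SLC38A2 take up glutamine, alanine and other small neutral amino acids with sodium, and the deposited coordinates place them next to each other on chromosome 12, with 88172 bases and no other listed gene between them. SLC38A1 had 2279, 2399 and 2568 counts with mitoxantrone and 8335, 8049 and 7987 with DMSO (log2 fold change -1.75 ± 0.06). SLC38A2 had 2782, 3505 and 3585 with mitoxantrone and 7415, 6895 and 7354 with DMSO (log2 fold change -1.13 ± 0.07), mitoxantrone 1 being the lowest of its group. Both neighbours were lower, SLC38A1 by more. SLC43A1, the facilitative carrier LAT3, was at 34.2 ± 8.50 counts with mitoxantrone and 231 ± 7.93 with DMSO, 6.76-fold lower. SLC6A9, the glycine transporter GlyT1, was at 202 ± 22.8 with mitoxantrone and 687 ± 16.1 with DMSO, 3.40-fold lower.

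The remaining lower genes of these families had few reads. SLC3A1, the heavy subunit that in kidney and gut pairs with SLC7A9 for cystine uptake, was at 27.8 ± 2.09 normalized counts with mitoxantrone and 77.9 ± 6.47 with DMSO (log2 fold change -1.48 ± 0.22). In GENCODE 29, 29.4% of its exon bases are shared with PREPL on the opposite strand and 26.9% with another gene on the same strand. SLC6A15, a branched-chain amino acid carrier best known from neurons, had 7.26, 20.3 and 12.2 counts with mitoxantrone and 42.9, 38.1 and 20.7 with DMSO. Its highest mitoxantrone library lay just under its lowest DMSO library, and it failed the stricter 2-fold test (glmTreat, adjusted p = 0.072).

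The sequences around the start sites of 5 of these lower genes are shown because they hold the same short motif. RefSeq promoter windows (GRCh38.p14, 250 bases before to 50 bases after a start site, 300 in all) were found for 60 of the 81 genes, 86 windows in total since a gene can have several start sites. They were searched on both strands for TGATGNAA, the core of the C/EBP-ATF response element to which ATF4 dimers are known to bind. Of the 11 lower genes of the amino acid families 9 had a window, and 5 of these 9 held a match in 1 of their windows. None of the 10 higher genes of these families with a window held one. Over all 27305 genes with a window the share was 4.46%, and over all 35116 windows 3.62%. By window, 5 of the 16 of the lower amino acid genes matched, which is 31.2%. The 5 windows follow, 5′ to 3′ on the gene's strand, with the match in capitals. A match on the minus strand appears as its reverse complement. A match describes these letters and is not evidence that a factor binds there.

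SLC1A4: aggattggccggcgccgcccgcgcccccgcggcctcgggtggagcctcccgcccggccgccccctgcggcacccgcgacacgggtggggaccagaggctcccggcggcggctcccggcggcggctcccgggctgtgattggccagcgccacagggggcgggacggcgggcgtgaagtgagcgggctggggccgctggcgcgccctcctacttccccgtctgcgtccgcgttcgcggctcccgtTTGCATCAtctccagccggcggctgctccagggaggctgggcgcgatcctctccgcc
SLC1A5: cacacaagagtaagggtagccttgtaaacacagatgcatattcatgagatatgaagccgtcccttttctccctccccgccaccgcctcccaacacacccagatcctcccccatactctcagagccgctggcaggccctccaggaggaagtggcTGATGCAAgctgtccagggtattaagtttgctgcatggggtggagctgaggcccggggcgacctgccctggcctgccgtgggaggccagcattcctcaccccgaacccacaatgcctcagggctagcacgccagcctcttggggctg
SLC38A1: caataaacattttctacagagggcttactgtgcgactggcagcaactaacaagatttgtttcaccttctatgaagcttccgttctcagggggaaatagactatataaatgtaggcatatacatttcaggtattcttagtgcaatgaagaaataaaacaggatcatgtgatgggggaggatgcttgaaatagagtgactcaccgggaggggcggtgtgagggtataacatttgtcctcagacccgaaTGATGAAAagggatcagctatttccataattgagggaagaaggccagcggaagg
SLC3A2: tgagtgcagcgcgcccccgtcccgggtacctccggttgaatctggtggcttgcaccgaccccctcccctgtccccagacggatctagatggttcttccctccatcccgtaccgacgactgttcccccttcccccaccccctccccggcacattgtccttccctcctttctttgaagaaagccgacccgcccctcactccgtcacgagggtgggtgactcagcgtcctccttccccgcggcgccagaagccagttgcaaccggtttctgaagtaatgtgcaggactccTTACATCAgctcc
SLC7A1: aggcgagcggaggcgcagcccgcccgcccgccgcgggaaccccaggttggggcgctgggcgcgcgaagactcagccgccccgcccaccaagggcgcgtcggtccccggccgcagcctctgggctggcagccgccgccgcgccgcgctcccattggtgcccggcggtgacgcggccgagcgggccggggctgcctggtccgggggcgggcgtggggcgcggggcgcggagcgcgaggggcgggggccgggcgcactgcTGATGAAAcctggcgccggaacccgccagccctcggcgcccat

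The windows lie at chr2:64989149-64989448 (plus strand), chr19:46784765-46785064 (minus), chr12:46266467-46266766 (minus), chr11:62881449-62881748 (plus) and chr13:29595639-29595938 (minus). Counted from the first base shown, the match takes bases 244 to 251 in SLC1A4, 154 to 161 in SLC1A5, 247 to 254 in SLC38A1, 288 to 295 in SLC3A2 and 258 to 265 in SLC7A1. Since 250 bases precede the start site, it spans or follows that site in all but SLC1A5. The windows of SLC1A4 and SLC38A1 are 1 of 2 for the gene and those of SLC1A5 and SLC3A2 1 of 3, and which start sites these cells use was not analysed here. In the windows of the lower genes SLC7A5, SLC38A2, SLC43A1 and SLC6A9 these letters were not found. The other motif searched, TGACNNNGC, the core of the antioxidant response element, was present in 4 of the 9 lower amino acid genes (SLC1A5, SLC3A2, SLC7A1 and SLC7A5), in none of the 10 higher ones and in 16.1% of all genes. No match of one motif overlapped one of the other in these windows.

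Genes of the amino acid response outside the solute carriers, by a list of 20, were lower wherever they were listed. All 14 listed genes were lower (median log2 fold change -3.07), and the other 6 (ATF5, SESN2, PSPH, SHMT2, CTH and CEBPB) were not listed. Of all listed genes 41.1% were lower, and 55.0% of those averaging 50 or more counts. ATF4 itself had 4444, 4118 and 4091 normalized counts with mitoxantrone, against 10012, 10288 and 9571 with DMSO (log2 fold change -1.24 ± 0.06). Its size of change was close to that of SLC7A5 and SLC3A2, and a link between ATF4 and the transporters was not tested. The asparagine synthetase gene ASNS, at 466 ± 23.8 with mitoxantrone and 8009 ± 134 with DMSO, was 17.2-fold lower. The ATF4 target and inhibitor TRIB3 was 22.7-fold lower and PHGDH, the first enzyme of serine synthesis, 23.5-fold lower, more than any of the 81 transporters.

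Among the 12 higher amino acid family genes only SLC6A16, SLC6A17, SLC38A7, SLC43A2 and SLC1A1 reached a mean of 50 normalized counts with mitoxantrone. SLC43A2, the facilitative carrier LAT4, had 1469.8, 1379 and 1428 counts with mitoxantrone, against 352, 357 and 333 with DMSO, a 4.11-fold rise (log2 fold change 2.04 ± 0.08; edgeR, adjusted p = 9.4e-25). It went the opposite way to SLC43A1, its relative in the same family. SLC38A7, a glutamine and asparagine carrier placed in the lysosome, had 918, 825 and 906 with mitoxantrone and 353, 377 and 413 with DMSO, 2.32-fold higher, opposite to SLC38A1 and SLC38A2. SLC6A17, a carrier of neutral amino acids in synaptic vesicles, was at 327 ± 39.7 with mitoxantrone and 118 ± 5.20 with DMSO. SLC1A1, the glutamate and cysteine carrier EAAT3, was at 80.6 ± 10.4 with mitoxantrone and 19.4 ± 1.9 with DMSO, 4.16-fold higher. In families 1, 6, 7, 38 and 43 both directions therefore occurred, and in family 3 both genes were lower.

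SLC6A16, a family member with no firmly known substrate, had 91.9, 90.3 and 81.6 counts with mitoxantrone and 12.9, 7.43 and 31.9 with DMSO. DMSO 3 stood above the other DMSO libraries, and without it the log2 fold change was 3.08 in place of 2.31. SLC7A8, the light subunit LAT2, went to 44 reads over the 3 mitoxantrone libraries against 3 over the DMSO libraries, a ratio of 18.5 (exact 95% confidence interval 5.94 to 93.3). The fit gave a log2 fold change of 4.04, or 4.85 without DMSO 3. Intervals here cover counting error only, and floors only that of the DMSO reads.

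The other 6 higher genes were near the limit of detection. All 3 DMSO libraries had 0 reads for SLC1A2, the astrocyte glutamate transporter, SLC6A5, the neuronal glycine transporter GlyT2, SLC6A19, the gut and kidney neutral amino acid transporter, and the pseudogene SLC6A21P. The mitoxantrone libraries together had 13, 9, 11 and 9 reads for these genes. Set against a floor of 3 reads over the DMSO group, SLC1A2 was 5.48-fold, SLC6A5 3.79-fold, SLC6A19 4.63-fold and SLC6A21P 3.79-fold higher. These values take the mitoxantrone reads as exact, so they are not lower limits. SLC6A21P rested on mitoxantrone 1, which had 7 of its reads. Its call was lost without that library (edgeR, adjusted p = 0.097; log2 fold change 3.32 in place of 4.83). The serotonin transporter SLC6A4 had 25 reads with mitoxantrone and 2 with DMSO, a ratio of 15.8 (exact 95% confidence interval 3.94 to 138). The GABA transporter SLC6A11 had 13 reads with mitoxantrone against 1 with DMSO, a ratio of 16.4 (exact 95% confidence interval 2.47 to 698). The fit put SLC6A11 at 3.57 on the log2 scale, or 5.32 without DMSO 2, which held the only DMSO read. None of these genes reached 10 mean normalized counts in either group.

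**Figure D3:**
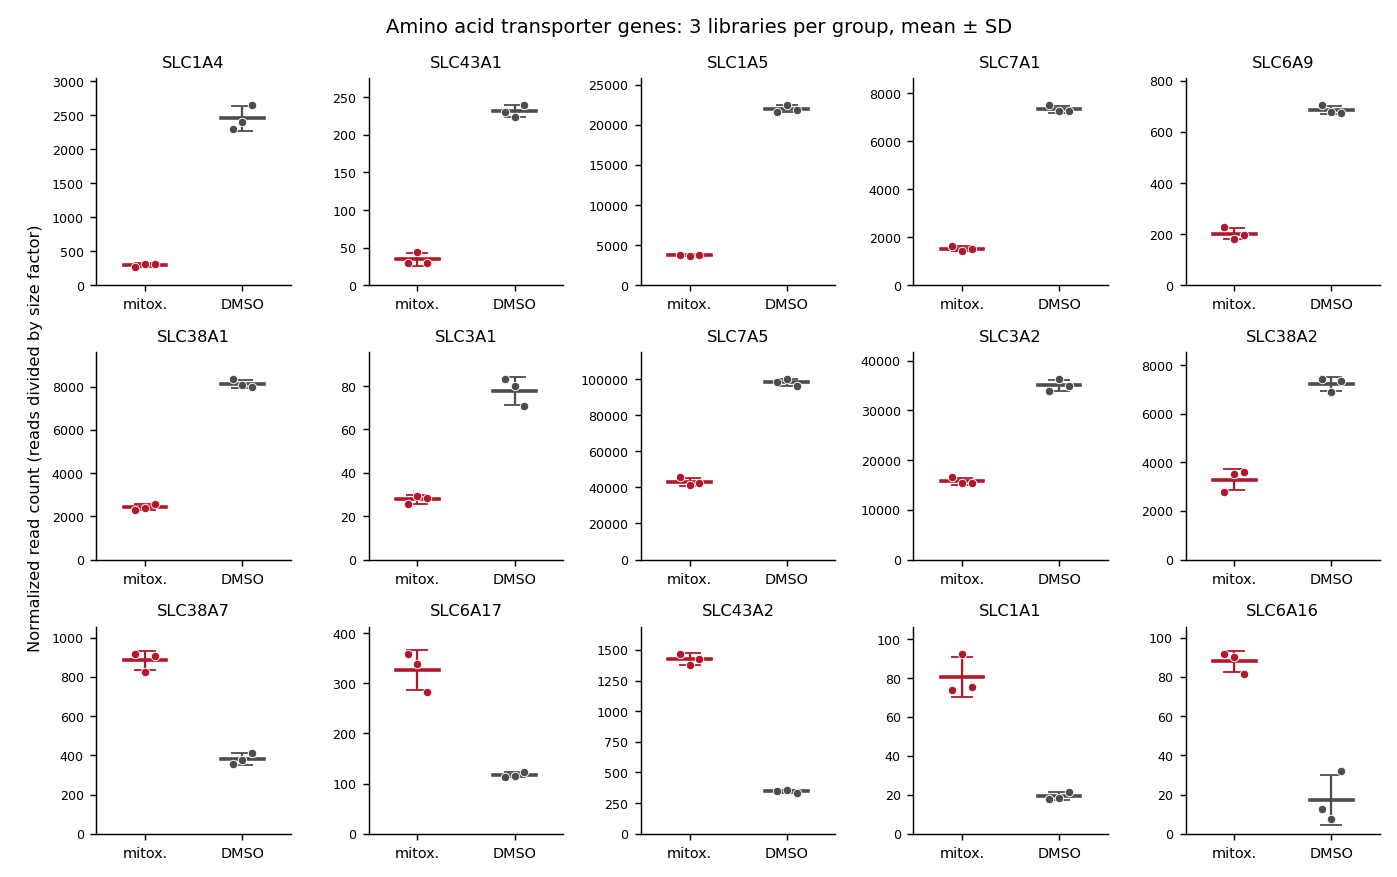
Normalized read counts (y axis, starting at 0, a scale for each gene) of the 15 amino acid family genes averaging 50 or more in the group where they were higher, with mitoxantrone (red, left) and DMSO (grey, right). Points are the 3 libraries of a group, lines and bars their mean ± SD. In the first 10 genes all mitoxantrone libraries lie below all DMSO libraries, and in the last 5 above them. DMSO 3 is the outlying DMSO point of SLC6A16.

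Outside the amino acid families 48 of 58 genes were higher and 10 lower, and their median was 1.68 on the log2 fold change scale. Of these 58 genes 29 averaged under 50 counts, a level at which 1497 of 1924 listed genes were higher. The 10 lower genes were 5 mitochondrial carriers, SLC39A14, SLC35F2, SLC19A2, SLC10A7 and SLC8A1.

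Both listed riboflavin transporters were higher, and SLC52A1 rose more than any other solute carrier averaging 50 or more counts. Family 52 brings vitamin B2, the precursor of FMN and FAD, into cells. SLC52A1 (ENSG00000132517) lies at 4935895 to 4955304 on the minus strand of chromosome 17 by the deposited coordinates, whose build is not stated. It had 538, 499 and 469 normalized counts in the mitoxantrone libraries, against 12, 6.50 and 6.90 in the DMSO libraries, a 59.3-fold difference (log2 fold change 5.86 ± 0.18 SE; edgeR, adjusted p = 9.0e-29). It reached 6.41 ± 0.370 FPKM with mitoxantrone, against 0.113 ± 0.0404 FPKM with DMSO. SLC52A3 was at 47.2, 37.3 and 36.7 counts with mitoxantrone and 3.43, 5.57 and 3.45 with DMSO, 9.73-fold higher (log2 fold change 3.25 ± 0.39). For both genes every mitoxantrone library lay above every DMSO library. The third gene of the family, SLC52A2, was not listed, nor were RFK and FLAD1, the enzymes that turn riboflavin into FMN and FAD. The RefSeq promoter table held no window for SLC52A1 or SLC52A3.

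The other vitamin, nucleoside and choline carriers moved by less. With the riboflavin transporters the group held 8 genes, 7 of them higher, beside 58.9% of all listed genes. Of the 6 averaging 50 or more counts 5 were higher, beside 45.0% of all listed genes at that level. SLC19A2, the thiamine transporter THTR1, was the only lower gene of the 8 in this group, at 100.4, 155 and 116 normalized counts with mitoxantrone and 370.4, 306 and 266 with DMSO (log2 fold change -1.34 ± 0.14). SLC29A3, a nucleoside carrier of lysosomes, had 923, 887 and 811 with mitoxantrone and 363, 327 and 384 with DMSO, 2.44-fold higher. SLC46A3, of a family of folate and heme carriers, was at 196 ± 6.39 with mitoxantrone and 78.9 ± 8.89 with DMSO, 2.48-fold higher. The choline transporter-like genes SLC44A2, SLC44A3 and SLC44A5 had log2 fold changes of 1.02, 1.10 and 2.08. SLC44A2 and SLC44A3 failed the stricter 2-fold test (edgeR glmTreat, adjusted p = 0.21 and 0.14). In the authors' deposited table SLC44A2 and SLC39A13 were the solute carriers closest to the threshold, at 1.01 and 1.01.

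Of the groups outside the amino acid families, only the mitochondrial carriers had more lower than higher genes. From the 48 protein-coding genes of family 25, 7 were listed, 5 of them lower. Of the 7, 6 averaged 50 or more counts, and 5 of these 6 were lower. Among all listed genes 41.1% were lower, and 55.0% of those averaging 50 or more counts. SLC25A25, a carrier of ATP-magnesium and phosphate, had 246, 261 and 258 normalized counts with mitoxantrone, against 804, 868 and 745 with DMSO (3.16-fold lower). SLC25A40, linked to glutathione import into mitochondria, had 83.5, 119 and 107 with mitoxantrone and 303, 275 and 316 with DMSO (2.89-fold lower). SLC25A33, a pyrimidine nucleotide carrier, had 119, 91.4 and 124 with mitoxantrone and 298, 291 and 272 with DMSO (2.57-fold lower). The groups did not overlap for any of the 3.

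SLC25A32, a carrier of folate and FAD, was at 449 ± 32.0 counts with mitoxantrone and 948 ± 26.3 with DMSO. Its log2 fold change of -1.07 failed the stricter 2-fold test (glmTreat, adjusted p = 0.082). GENCODE 29 gives 69.7% of the exon bases of SLC25A32 to a second gene on the same strand as well, so its reads may be shared. The higher mitochondrial carriers were SLC25A42, for coenzyme A, at 127 ± 3.40 with mitoxantrone and 47.1 ± 3.99 with DMSO, and the glutamate carrier SLC25A18, at 21.6 ± 3.16 with mitoxantrone and 3.22 ± 0.377 with DMSO.

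Among metal and heme carriers 5 of 6 genes were higher, beside 58.9% of all listed genes. SLC40A1 encodes ferroportin, the exporter of iron from cells. It had 957, 934 and 948 normalized counts with mitoxantrone, against 134, 144 and 137 with DMSO, a 6.84-fold rise (log2 fold change 2.77 ± 0.10; edgeR, adjusted p = 6.5e-27). The replicates lay within a narrow band in both groups. SLC39A14, the importer ZIP14 of zinc and of iron not bound to transferrin, went the other way, with 2481, 2564 and 2573 counts with mitoxantrone and 6817, 6785 and 6656 with DMSO (2.66-fold lower; log2 fold change -1.41 ± 0.06). SLC48A1, which moves heme out of lysosomes and endosomes, had 2935, 2728 and 2529 with mitoxantrone and 1211, 1303 and 1265 with DMSO, 2.17-fold higher. The zinc carriers SLC39A10 and SLC39A13 were 2.29-fold and 2.02-fold higher, and SLC39A13 failed the stricter 2-fold test (glmTreat, adjusted p = 0.20). SLC31A2, a copper transporter-like gene, was at 43.4 ± 8.59 counts with mitoxantrone and 18.1 ± 5.42 with DMSO. It shares 63.1% of its exon bases with FKBP15 on the opposite strand.

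Sugar and nucleotide sugar carriers were higher in 9 of 10 cases. Of the 10, 7 averaged under 50 counts, a level at which 1497 of 1924 listed genes were higher. SLC2A12, the glucose transporter GLUT12, had 102, 119.7 and 116 normalized counts with mitoxantrone, against 10.3, 10.2 and 13.8 with DMSO (9.84-fold higher; log2 fold change 3.28 ± 0.24). In GENCODE 29, 38.9% of its exon bases are shared with TBPL1 on the opposite strand. SLC2A6, the related GLUT6, was more abundant, at 1113, 985 and 998 with mitoxantrone and 323, 352 and 321 with DMSO (3.11-fold higher). SLC2A1 and SLC2A3, the main glucose transporters of many tumour cells, were not listed. SLC35F2, which is named with the nucleotide sugar family, was the lower gene, at 678 ± 33.4 with mitoxantrone and 1454 ± 55.4 with DMSO (log2 fold change -1.10 ± 0.08).

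The low-count sugar carriers varied with single libraries. The fructose transporter SLC2A5 had 13, 7 and 5 reads with mitoxantrone and 1, 4 and 1 with DMSO (log2 fold change 2.33, or 3.27 without DMSO 2). SLC2A14, a near copy of SLC2A3 whose reads may be shared with it, had 16, 14 and 8 reads with mitoxantrone and 3, 2 and 12 with DMSO (log2 fold change 1.49, or 2.61 without DMSO 3), and its groups overlapped. SLC5A1, the gut glucose transporter SGLT1, had 19 reads with mitoxantrone against 2 with DMSO, a ratio of 12 (exact 95% confidence interval 2.90 to 106). Its fitted log2 fold change of 3.34 became 5.83 without DMSO 1, which held both DMSO reads. SLC5A2, SLC5A9 and SLC5A11, of the same family, had log2 fold changes of 1.62, 1.36 and 1.10 at means of 22, 15.2 and 29 counts with mitoxantrone, against 7.01, 5.82 and 13.6 with DMSO. SLC5A2 shares 31.1% of its exon bases with C16orf58. SLC5A9 and SLC5A11 failed the stricter 2-fold test (glmTreat, adjusted p = 0.092 and 0.17). SLC35G6, which has near-identical relatives, had 19 reads with mitoxantrone against 3 with DMSO, a ratio of 8.0 (exact 95% confidence interval 2.36 to 42.2).

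Carriers of other organic solutes were higher in 12 of 13 cases, and 8 of the 13 averaged under 50 counts. At that level 1497 of 1924 listed genes were higher. The median log2 fold change was 2.17, or 2.07 with the 2 genes at 0 DMSO reads set against a floor of 3 reads. SLC17A5, the lysosomal exporter of sialic acid, had 397, 464 and 454 normalized counts with mitoxantrone, against 111, 83.6 and 129 with DMSO, a 4.05-fold rise (log2 fold change 2.01 ± 0.13; edgeR, adjusted p = 2.5e-18). Every mitoxantrone library exceeded every DMSO library by over 3 times. SLC16A13, a monocarboxylate transporter-like gene, was at 385 ± 21.1 with mitoxantrone and 96.0 ± 3.78 with DMSO. It lies 1509 bases from SLC16A11 on chromosome 17, which was higher too, with 26 reads with mitoxantrone against 2 with DMSO, a ratio of 16.4 (exact 95% confidence interval 4.11 to 143). The fitted log2 fold change of SLC16A11 was 3.80, or 6.28 without DMSO 3. SLC16A1 and SLC16A3, the main lactate transporters, were not listed.

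Of the organic ion family, SLC22A17 was the abundant gene, at 381 ± 42.2 normalized counts with mitoxantrone and 116 ± 16.8 with DMSO (3.29-fold higher). SLC22A20 and SLC22A31 had log2 fold changes of 2.32 and 1.72, at 41.8 and 40.8 mean counts with mitoxantrone against 8.25 and 12.4 with DMSO. SLC22A14 and SLC17A8, a vesicular glutamate transporter, had 0 reads with DMSO and 11 and 10 with mitoxantrone. Against a floor of 3 DMSO reads they were 4.63-fold and 4.21-fold higher, the mitoxantrone reads being taken as exact. SLC16A12 was 4.73-fold higher, and SLC13A3, a dicarboxylate transporter, had 14 reads with mitoxantrone against 2 with DMSO, a ratio of 8.85 (exact 95% confidence interval 2.03 to 80.2). SLC10A7 was the lower gene, at 42.9 ± 9.73 counts with mitoxantrone and 93.2 ± 12 with DMSO, and failed the stricter 2-fold test (glmTreat, adjusted p = 0.13). Both lipid carriers were higher, beside 58.9% of all listed genes. The fatty acid transport protein gene SLC27A1 was at 424 ± 54.0 with mitoxantrone and 139 ± 11.4 with DMSO, and the sterol transporter subunit SLC51A at 37.6 ± 4.51 with mitoxantrone and 17.4 ± 3.23 with DMSO.

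Inorganic ion carriers were higher in 11 of 12 cases, most of them with few reads. Of the 12, 9 averaged under 50 counts, a level at which 1497 of 1924 listed genes were higher. SLC4A11, of the bicarbonate transporter family and best known from the corneal endothelium, had 369, 307 and 364 normalized counts with mitoxantrone, against 44.6, 61.3 and 69.0 with DMSO (5.95-fold higher; log2 fold change 2.57 ± 0.14). The sodium-proton exchanger genes SLC9A2, SLC9A3, SLC9A7 and SLC9A9 all rose, SLC9A7 of the trans-Golgi network being the most abundant at 852 ± 52.5 with mitoxantrone and 410.4 ± 14.5 with DMSO. SLC9A2 and SLC9A7 failed the stricter 2-fold test (glmTreat, adjusted p = 0.12 for both). In GENCODE 29, SLC9A3 shares 41.9% of its exon bases with PP7080 on the same strand, 14.9% with EXOC3 on the opposite strand and 14.7% with the antisense gene SLC9A3-AS1, which is also listed. SLC8A1, the sodium-calcium exchanger NCX1, was the lower gene, at 17.9 ± 2.43 with mitoxantrone and 42.9 ± 4.10 with DMSO (2-fold test, glmTreat, adjusted p = 0.074).

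The other 6 ion carrier genes had means of 4.08 to 43.7 normalized counts with mitoxantrone and 0.286 to 12.9 with DMSO. They were the phosphate carrier SLC34A3 (log2 fold change 1.75), the calcium exchangers SLC24A3 and SLC24A4 (2.00 for SLC24A4), the anion exchangers SLC26A7 and SLC26A9 (2.58 for SLC26A9) and SLC12A8 (2.78, or 3.37 without DMSO 2). SLC24A3 had 17 reads with mitoxantrone against 1 with DMSO, a ratio of 21.5 (exact 95% confidence interval 3.37 to 898), and SLC26A7 11 with mitoxantrone against 1 with DMSO, a ratio of 13.9 (exact 95% confidence interval 2.02 to 598). Without the DMSO library holding that read (DMSO 3 for SLC24A3, DMSO 1 for SLC26A7) their fitted log2 fold changes went to 5.67 in place of 3.96 and to 5.05 in place of 3.34. SLC9A9 was at 1.92, or 2.51 without DMSO 2.

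**Figure D4:**
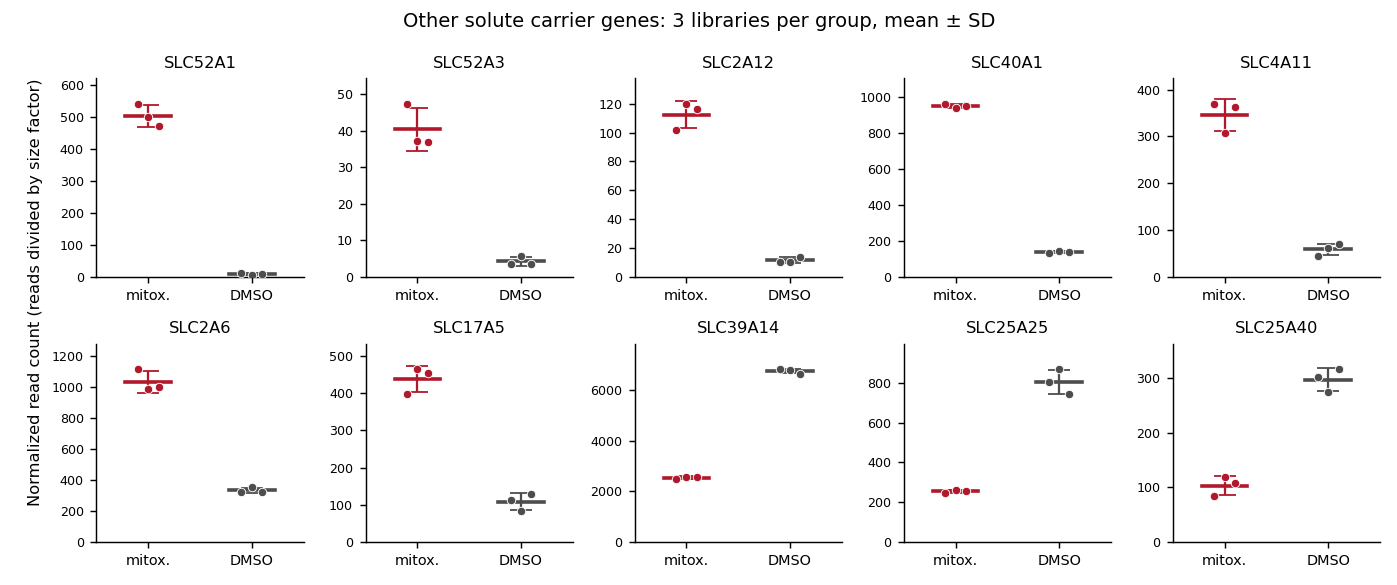
Normalized read counts (y axis, starting at 0, a scale for each gene) of 10 solute carrier genes outside the amino acid families, with mitoxantrone (red, left) and DMSO (grey, right). Points are the 3 libraries of a group, lines and bars their mean ± SD. The first 7 genes are higher in all mitoxantrone libraries, with SLC52A1 near 0 in DMSO, and SLC39A14, SLC25A25 and SLC25A40 are lower in all of them.

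The compartment terms in the deposited table played no part in choosing the genes. A plasma membrane term was attached to 56 solute carriers. Of these, the 20 in the amino acid families comprised 9 higher and 11 lower genes, and the 36 in other families 33 higher and 3 lower. All 843 listed genes with such a term comprised 673 higher and 170 lower. A mitochondrial term was attached to 9 solute carriers, the 7 of family 25 with SLC3A1 and SLC8A1, of which 2 were higher and 7 lower, against 131 higher and 91 lower among all 222 listed genes with that term. A lysosomal term was attached to SLC17A5, SLC29A3 and SLC48A1, all higher, beside 84 higher and 6 lower of all 90 such genes. A Golgi term was attached to SLC39A13 and SLC9A7, which were higher, and to SLC1A5 and SLC39A14, which were lower, beside 186 higher and 57 lower of all 243 such genes.

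Transporters named outside the SLC numbering were mostly higher where they were listed. Of 12 protein-coding SLCO genes, the organic anion transporters of solute carrier family 21, 3 were listed and higher, with SLCO2B1 at 409 ± 63.7 normalized counts with mitoxantrone and 47.9 ± 15.2 with DMSO. Of 46 protein-coding ABC transporter genes, which use ATP, 18 were listed, 17 higher and 1 (ABCG1) lower. Of all listed genes 58.9% were higher. Several ABC genes, among them ABCB1 and ABCG4, and also SLCO1A2 and SLCO1B1 averaged under 50 counts. At that level 1497 of 1924 listed genes were higher. The cholesterol and phospholipid exporter ABCA1 was 5.08-fold higher, at 2424 ± 119 with mitoxantrone and 477 ± 18.6 with DMSO. ABCC2, a conjugate and drug exporter, was more abundant, at 12447 ± 248 with mitoxantrone and 5616 ± 259.8 with DMSO.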

How the data were processed

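Total RNA of A549 cells was sequenced in 6 libraries (3 mitoxantrone, 3 DMSO), grouped by their titles. Tools in the submitters' processing notes are HISAT2 2.0.1, cutadapt 1.9.1, SAMtools 0.1.19, HTSeq 0.6.1, Cufflinks 2.2.1 and DESeq2, and the build of the genome is not given in the sources used here. Per the file headers, the authors gave for each of 4546 genes raw read counts and FPKM values. Per the file headers they also deposited a mean normalized count (a signal, counts over size factors), a log2 fold change with its standard error, a test score, and raw and adjusted p-values. Only genes past a threshold are in this table.

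Each library's size factor was solved for from the counts and the deposited means by least squares (largest relative residual 4.8e-10), and library totals from FPKM values of at least 20. Counts were tested in edgeR 4.0.16 (R 4.3.3) by the quasi-likelihood test with these size factors, no covariate and no filter. Each standard error (SE) was calculated as the absolute log2 fold change divided by the square root of that test's F statistic. P-values were adjusted over all 4546 genes, and the script was tested on simulated data. The common coefficient of variation between replicates in edgeR, which leaves out counting error, was 6.68%. It was estimated only on the listed genes, which had already passed the authors' threshold. Alternatives were DESeq2 1.42.0, other scalings, a count filter, an adjusted p of 0.01, a test against a 2-fold change, a replicate block and each library left out.

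The members, the substrate groups, the lists and the motifs were chosen with earlier results of these data known. Genes were named by a rule: SLC52A1, amino acid family genes averaging 50 or more in the group where they were higher, and in each other group the 4 largest changes at that level and the 2 highest levels. Genes at 0 in a group and close relatives were added, and the rest are given by symbol. Another 3 of the 81 genes enter the counts but are not reported here by name. The 14 response genes beside the transporters, the markers and the SLCO and ABC genes come from such lists. Promoter sequences are from RefSeq (GRCh38.p14). Exon overlaps are from GENCODE 29, matched by gene identifier, and were not set against the deposited coordinates.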

Additional observations from a re-analysis of the deposited data

How the results depend on the processing

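With the main settings 60 solute carriers were called higher and 21 lower, 12 and 11 of them in the amino acid families and 48 and 10 in the others. A filter of 10 counts in at least 3 libraries kept 64 of the 81. The amino acid genes called higher were then 6, the median log2 fold change of the amino acid families turned to -1.19 in place of 1.21, and that of the other families was 1.36 in place of 1.68, because low-count genes that were higher had been removed. TMM factors gave 1.41 for the other families, the shift of -0.26 being common to all genes. Against a 2-fold change 65 of the 81 passed and 16 lost the call, and 6 of the 10 lower genes of other families did, the stricter threshold being the cause. With 1 library left out, members called higher ranged from 59 to 60, members called lower stayed at 21, the median of the amino acid families ranged from 1.16 to 1.27 and that of the others from 1.62 to 1.71. For the 48 listed genes that the naming rule gives values for, the alternatives gave 666 values, of which 660 kept direction and call, 6 lost the call and 0 reversed. Those were SLC25A32, SLC51A (adjusted p = 0.15), SLC9A2 and SLC9A7 against a 2-fold change, and SLC6A21P with DESeq2 (adjusted p = 0.22) and without mitoxantrone 1. Deviations of libraries with the same number were not shared (correlations of -0.07, -0.08 and 0.03 over 2622 genes), and the replicate block gave 60 higher and 21 lower, 12 and 11 in the amino acid families, with medians of 1.21 and 1.67. Depth limits the genes with 0 to 3 DMSO reads, whose fold changes rest on a floor or have wide intervals.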
